A study of Homo sapiens with 8 samples.

Results

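The binding sites of HIF-1β in T47D breast cancer cells were set against those in HCT-116 colorectal cancer cells, and each genomic region was classed by whether it was a site in both lines or in 1 of them. A site of a line was a merged region with overlapping peaks (1 bp or more) of both replicates, and the sites of the lines were then merged by the same overlap. This gave 3040 regions, of the 3840 regions obtained from the sites of all 4 lines in the series. Of the 3040 regions, 782 were sites in both lines, 1283 were sites in T47D without HCT-116, and 975 were sites in HCT-116 without T47D, whatever the remaining lines (PC-3 and A549) showed. The classes come from the presence of peaks and not from the genes or sequences compared here. A peak is listed only above a score limit of about 50, so the score ranks compared here are not independent of the classes. The series holds 8 chromatin immunoprecipitation sequencing (ChIP-seq) libraries, 2 of each line, made with a rabbit polyclonal HIF-1β antibody from cells that were exposed to 0.5% oxygen for 16 hours. T47D is an established line from a luminal, oestrogen receptor positive breast cancer, and HCT-116 an established line from a colorectal carcinoma. The lines share the medium, the hypoxic exposure and the antibody, and neither cells at normal oxygen nor a control library was analysed here. Each tumour type is represented by 1 line, so line and tissue cannot be told apart. The labels do not say whether replicates came from separate cultures, so tests between libraries measure only the spread between these libraries.

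HIF-1β (ARNT) is the constitutive partner of the oxygen-regulated subunits HIF-1α and HIF-2α. In hypoxia the α subunits escape hydroxylation and degradation, pair with HIF-1β and bind DNA at a short core, RCGTG (R is A or G), from which they activate genes for glycolysis, pH control, blood vessel growth and their own feedback. HIF-1β also pairs with the aryl hydrocarbon receptor (AHR), whose core overlaps that of HIF, so an antibody against HIF-1β can recover DNA bound by either pair.

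T47D replicates 1 and 2 had 3061 and 2910 peaks, and HCT-116 replicates 2 and 3 had 3790 and 1913. Each deposited peak has an interval on GRCh37 (hg19) and a score, of which the lowest lay between 50 and 50.1 in every list and the highest was 3100 or a little above, a value that 3 to 13 peaks of each list had reached. The scores have no common scale between libraries, so each was turned into a percentile rank within its own list, where 100 is the top. The lists hold no reads, so the depth behind them is unknown, and a region that is absent from a list may lack binding or lie under the limit of that list, which cannot be told apart. Replicates of a line shared more regions than libraries of different lines. The Jaccard index (shared regions divided by all regions of a pair of lists) was 0.531 between the T47D replicates and 0.446 between the HCT-116 replicates, against 0.220 to 0.246 between lines (exact permutation test over the 3 ways to pair 4 libraries, one-sided, p = 0.333, the smallest it allows). Shares of regions are given with a 95% interval (exact binomial), which reflects counting error alone, because regions from the same libraries are not replicates.

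To show the DNA behind each class, the 3 regions with the highest mean rank are given for each, as the window of 60 bases on the plus strand of GRCh37 that holds most copies of RCGTG outside untranslated regions. Capitals mark RCGTG on either strand, that is ACGTG or GCGTG, or CACGT or CACGC where the plus strand carries the complement. The label intron was given for any annotated gene and transcript, so a window can carry it and lie upstream of the nearest start. The regions of both lines lay at GPI, ANKRD37 and ENO1, with windows centred at -146, -169 and -89 bp from the nearest transcription start, where a minus sign means upstream.
GPI, both lines, chr19:34850210-34850269, outside annotated genes: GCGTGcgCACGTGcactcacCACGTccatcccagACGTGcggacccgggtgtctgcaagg
ANKRD37, both lines, chr4:186317797-186317856, intron: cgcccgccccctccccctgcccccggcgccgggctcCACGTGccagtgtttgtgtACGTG
ENO1, both lines, chr1:8938386-8938445, intron: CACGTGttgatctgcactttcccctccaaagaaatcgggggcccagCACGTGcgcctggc
KRT19, T47D without HCT-116, chr17:39692618-39692677, intergenic: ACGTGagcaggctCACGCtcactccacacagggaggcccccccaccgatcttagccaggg
OR1I1, T47D without HCT-116, chr19:15183815-15183874, intergenic: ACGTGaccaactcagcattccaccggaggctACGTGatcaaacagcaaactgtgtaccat
PFKFB3, T47D without HCT-116, chr10:6244769-6244828, intron: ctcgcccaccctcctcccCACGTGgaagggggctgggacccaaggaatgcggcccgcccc
SLC2A1, HCT-116 without T47D, chr1:43473903-43473962, intergenic: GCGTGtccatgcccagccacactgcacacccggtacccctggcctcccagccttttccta
KCMF1, HCT-116 without T47D, chr2:85173740-85173799, intergenic: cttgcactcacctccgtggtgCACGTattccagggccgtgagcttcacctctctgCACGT
CXCR4, HCT-116 without T47D, chr2:137003888-137003947, intergenic: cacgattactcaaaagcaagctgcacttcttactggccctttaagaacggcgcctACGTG
The windows of the shared regions hold 5, 3 and 4 copies, and those of the 1-line regions 1 or 2. The window of PFKFB3 is the only 1 of the 6 from 1-line regions that lies at a promoter, centred at -31 bp from a start, and the others are centred at between -127170 bp and -8087 bp.

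Of the T47D sites, 37.9% met an HCT-116 site, and of the HCT-116 sites, 44.5% met a T47D site. The Jaccard index between these site sets was 0.257. For the 5 other pairs of lines it ran from 0.132 (T47D and A549) to 0.252 (PC-3 and A549). The overlap left few borderline cases. Where T47D and HCT-116 sites met, the median overlap was 1359 bp, and 780 of 781 pairs covered at least 50% of the shorter site. The smallest overlaps were 637 bp at TRIM33, 706 bp at GTF2IRD2 and 735 bp at GJA3, and the narrowest gaps between a T47D region and the nearest HCT-116 site were 6 bp near CTDSP1, 236 bp near PFKFB3 and 754 bp near STC2. On the other side, 4 HCT-116 regions had a T47D site within 500 bp. Regions of 1 line seldom lay beside a site of the other. The median distance to the nearest site of the other line was 377412 bp for T47D regions and 261774 bp for HCT-116 regions, and 8.59% and 10.7% of them had such a site within 25 kb. Chromosome and gene annotation could be used for 3037 of the 3040 regions, 781, 1281 and 975 in the classes, as 3 lay on contigs outside the main chromosomes.

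Regions of both lines lay at promoters more often than regions of 1 line. Within 2 kb of the start of a protein-coding transcript lay 80.0% of the regions of both lines (interval 77.1 to 82.8%), 49.2% of the T47D regions (46.4 to 52.0%) and 51.0% of the HCT-116 regions (47.8 to 54.2%). The start itself was covered by 75.2%, 44.1% and 45.1%. The median distance to a start was 0 bp for the regions of both lines, 2590 bp for T47D regions and 1243 bp for HCT-116 regions. The medians of the 1-line classes depended on single libraries, with 591 bp for T47D and 3843 bp for HCT-116 without T47D replicate 2, 3669 bp for HCT-116 without T47D replicate 1, and 11075 bp for T47D and 0 bp for HCT-116 without HCT-116 replicate 3. Over 100 kb from any start lay 2.69% of the regions of both lines, 13.5% of T47D regions and 9.85% of HCT-116 regions. Among distal regions, those over 2 kb from a start, the median distance was 21367 bp for the 156 regions of both lines, 36806 bp for the 651 T47D regions and 33597 bp for the 478 HCT-116 regions. The order of both lines above either line alone held in each of the 4 pairings of 1 T47D with 1 HCT-116 library, where the promoter share was 79.6 to 81.6% for regions in both lists, 40.4 to 52.5% for T47D and 48.2 to 56.3% for HCT-116.

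**Figure D1:**
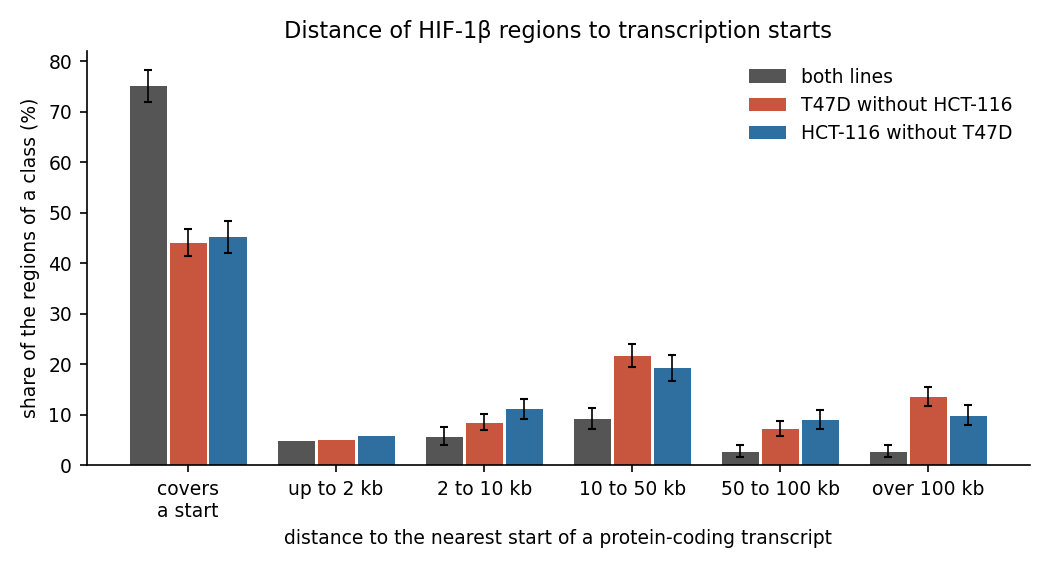
Bars show the share of the regions of each class (%) by distance from the edge of the region to the nearest start of a protein-coding transcript, with 95% exact binomial intervals except on the bars for up to 2 kb, which are differences of shares. Regions of both lines covered a start in 75.2% of cases, against 44.1% and 45.1% for the 1-line classes, which had the higher bars in every bin beyond 2 kb.

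The 1-line classes lay close to each other in promoter share, and their intervals overlapped. Whole libraries gave 60.8% and 59.1% of peaks at promoters in T47D replicates 1 and 2 and 65.0% and 63.1% in HCT-116 replicates 2 and 3 (mean 59.9% ± 1.24 and 64.1% ± 1.37, SD, n = 2 each). The libraries of the lines did not overlap, but with 2 against 2 no test can pass a threshold (exact permutation test, two-sided, difference -4.14 percentage points, p = 0.333, the smallest possible, adjusted p = 0.5 over 3 tests of this kind). Peak width did not separate the lines, with medians of 1314 and 1234 bp in T47D and 1263 and 1216 bp in HCT-116 (exact permutation test, p = 0.667). Merged regions of both lines were wider, with a median of 1682 bp, than regions of T47D (1390 bp) or HCT-116 (1359 bp), as a union of more peaks can be. Their GC content was also higher, 59.3% against 54.2% and 57.5%. Within promoters alone the GC content was 60.1%, 59.5% and 62.0%, so that the class of both lines was not the highest there.

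Most 1-line regions had no peak at all in the other line, and those that did have one were mostly promoters. Of the 1283 T47D regions, 305 met a peak of HCT-116 replicate 2, 10 met a peak of replicate 3, and 968 (75.4%, interval 73.0 to 77.8%) met none. Of the 975 HCT-116 regions, 99 met a peak of T47D replicate 1, 107 a peak of replicate 2 and 770 (79.0%, interval 76.3 to 81.5%) none. Promoters made up 84.1% of the T47D regions with such a peak and 37.8% of those without, and the HCT-116 shares were 83.4% and 42.3%. HCT-116 replicate 2 had 3790 peaks and replicate 3 had 1913, and their part in this split was not tested. Without HCT-116 replicate 3, there were 979 T47D regions, of which 38.4% lay at promoters, and 2697 HCT-116 regions, of which 58.7% did.

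Within each library, regions of both lines had the higher scores. The median rank in T47D replicate 1 was 77.4 for regions of both lines and 55.8 for T47D regions, and in replicate 2 it was 77.2 and 53.7. In HCT-116 replicate 2 the medians were 84.3 for both lines and 68.7 for HCT-116 regions, and in replicate 3 they were 68.6 and 42.9. A region of both lines ranked above a 1-line region in 69.8% and 71.8% of all pairs in the T47D replicates and in 71.1% and 69.0% in the HCT-116 replicates. The direction was the same in 4 of 4 libraries, and in promoters and distal regions taken apart. Promoter pairs gave 74.4 to 78.1% over the 4 libraries, and distal pairs 62.8 to 66.6%. Among regions of 1 line, distal regions ranked above promoters, with medians of 61.9 and 51.2 in T47D replicate 1 and 50.7 and 37.7 in HCT-116 replicate 3. Leaving out 1-line regions with any peak in the other line changed the share of pairs little, to between 68.4% and 70.6%.

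**Figure D2:**
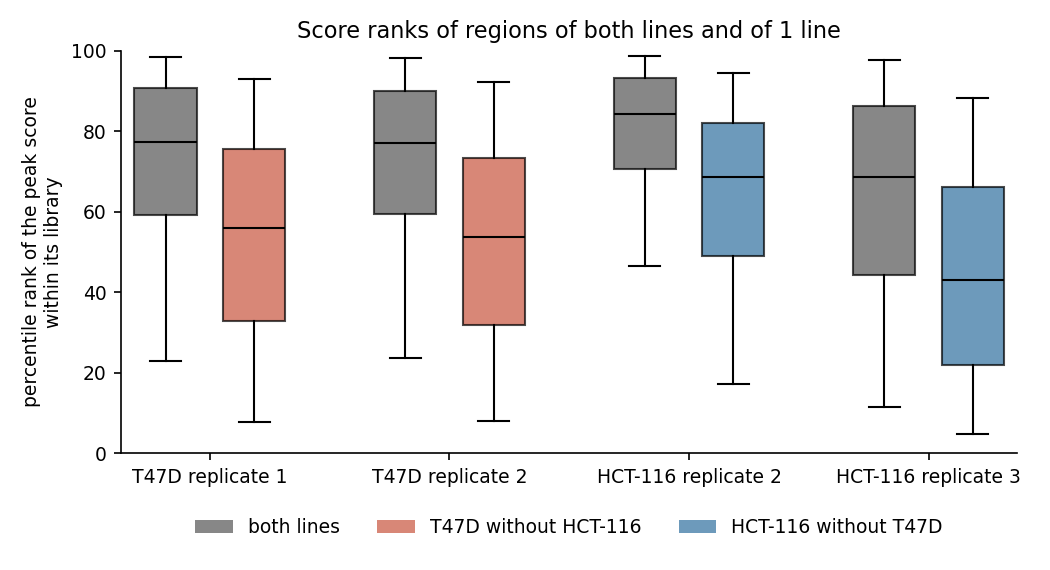
Boxes show the percentile rank of the peak score within its library (vertical axis, 0 to 100) for regions of both lines and of the line concerned, with the median, quartiles and whiskers at the 5th and 95th percentiles. The box of both lines sits above its neighbour in all 4 libraries, with medians of 77.4 against 55.8 in T47D replicate 1 and 84.3 against 68.7 in HCT-116 replicate 2.

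The share of sites found in both lines fell along the score rank in each line. When the sites of T47D were divided into 10 groups of nearly equal size by mean rank, 72.9% of the highest group (151 of 207, interval 66.4 to 78.9%) and 14.6% of the lowest group (30 of 206, interval 10.0 to 20.1%) were HCT-116 sites too. For HCT-116 the highest group gave 80.7% (142 of 176, interval 74.1 to 86.2%) and the lowest 14.3% (25 of 175, interval 9.46 to 20.4%). The promoter share moved little over the same groups and had no steady order, between 53.4 and 63.3% in T47D and between 55.1 and 68.0% in HCT-116. Of the 100 highest sites of each line, 75 of T47D and 84 of HCT-116 were sites in both.

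**Figure D3:**
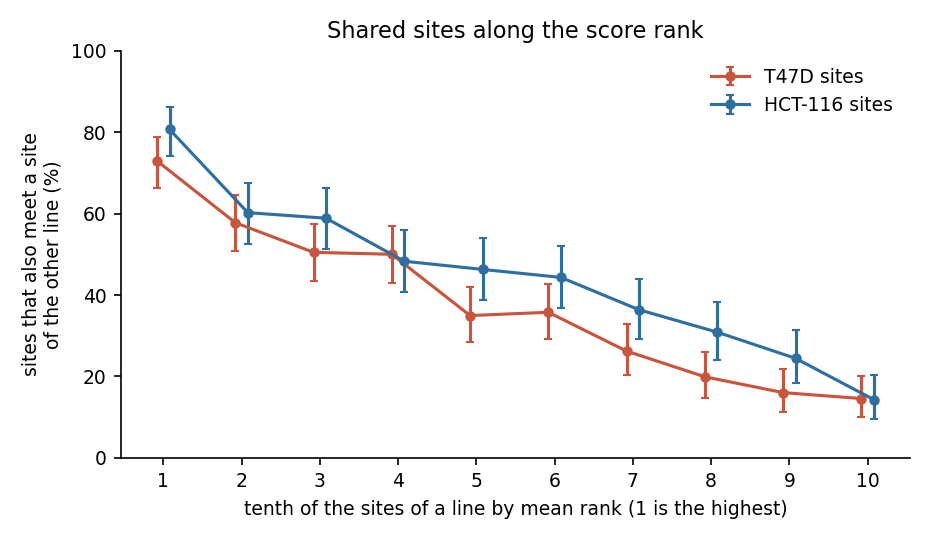
Points show the share of the sites of a line (%) that also met a site of the other line, by mean rank in 10 groups (1 is the highest), with 95% exact binomial intervals. The share fell from 72.9% to 14.6% in T47D and from 80.7% to 14.3% in HCT-116.

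The highest shared regions lay at genes of glycolysis and of the response to low oxygen. Scores are given below for T47D replicates 1 and 2 and then for HCT-116 replicates 2 and 3. GPI, which interconverts the hexose phosphates of glycolysis, had 3100 in every library, at chr19:34849476-34851217, covering the start. ANKRD37, a small ankyrin repeat protein and long-known HIF target, also had 3100 in every library, at chr4:186316662-186318752. ENO1, the enolase of glycolysis, had 2957, 3100, 3100 and 3100. Each of these regions had a rank of 99.8 or more in each library, and at this upper limit of the scores a difference between the lines could not be seen. LDHA, which turns pyruvate into lactate, had 2433, 3114, 3100 and 2097. PDK1, which holds pyruvate back from the mitochondria, had 2011, 2691, 3100 and 2158. PFKFB4, a bifunctional regulator of glycolytic flux, had 2200, 2234, 3100 and 1656. Not all of the top regions covered a start. The intronic region of EGLN3, an oxygen-sensing prolyl hydroxylase, lay 11511 bp from a start with 2125, 2501, 3100 and 2207. The region nearest to SNAPC1, a subunit of the complex that transcribes small nuclear RNA genes, lay 10470 bp from its start with 3100, 3100, 3100 and 2847. NARF and FAM174B completed the 10 highest, with scores of 1557 or more. All 10 were also sites in PC-3 and in A549, lines that the classing did not use. At the other end, the lowest region of both lines in T47D was the promoter of ZNF613, with 52.5 and 51.4 in T47D and 71.6 and 52.2 in HCT-116, all near the limit of the lists.

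Of the 10 highest T47D regions with no peak in either HCT-116 replicate, 8 were distal. Each is named by the gene with the nearest start, and whether that gene is its target was not tested. The highest lay 6324 bp upstream of KRT19, a keratin of simple and luminal epithelium, at chr17:39690884-39696237, with scores of 3078 and 3100 in T47D replicates 1 and 2. Its rank was 99.9 in both libraries. KRT19 was also the nearest gene of a region of both lines. The second, 8110 bp from OR1I1, an olfactory receptor gene, had 1946 and 2357. The third covered the promoter of PFKFB3, which makes the main activator of phosphofructokinase, at chr10:6242250-6247625, with 1582 and 1902 and 20 copies of RCGTG. That promoter was also a site in PC-3 and A549, and HCT-116 was the only one of the 4 lines in which it was not. PIK3R1, the regulatory subunit of phosphatidylinositol 3-kinase, had 1202 and 1391 at its promoter. An intronic region 2948 bp from a start of WT1, a zinc-finger transcription factor, had 1349 and 1322. Of the rest, BMP4, a ligand of the TGF-β family, had 1281 and 1195 at 12572 bp, and FOS, a component of the AP-1 transcription factor, had 811 and 1308 at 23029 bp. ZNF395, XAB2 and STMND1 were the remaining genes, and ZNF395 was also the nearest gene of 2 regions of both lines and 2 HCT-116 regions. Outside PFKFB3, OR1I1 and WT1, which had PC-3 sites, no region among the 10 was a site in PC-3 or A549.

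The 10 highest HCT-116 regions with no peak in T47D were distal except for MOB3A, and 8 of them were sites in PC-3 or A549. They too are named by the gene with the nearest start, which was not tested as their target. The first lay 48080 bp upstream of SLC2A1, the glucose transporter GLUT1, at chr1:43472619-43475269, with scores of 2900 and 1439 in HCT-116 replicates 2 and 3. The SLC2A1 promoter itself was a region of both lines, with 253, 196, 399 and 183, so the lines shared that promoter and not the distal region. A further HCT-116 region, 805 bp from an internal start of the gene, had 158 and 121. KCMF1, a ubiquitin ligase, had 2240 and 1342 at 23753 bp. CXCR4, the chemokine receptor for CXCL12, had 1659 and 1393 at 126357 bp. A region 3773 bp from KDM4C, a histone H3 lysine 9 demethylase, had 2043 and 1152. Here too the promoter was shared, with 564, 477, 874 and 389. FN1, the matrix protein fibronectin, had 1263 and 703 at 183413 bp from its start. SLC45A1, MOB3A, ARID3A, TMEM67 and MEGF6 were the other genes, with scores between 615 and 2407. In all 10, replicate 2 had the higher score, but scores have no common scale between libraries. By rank within its list, CXCR4 was higher in replicate 3 (98.7) than in replicate 2 (98.6).

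Regions of both lines were not equally ranked in them. Over the 782 regions of both lines, the ranks of replicates of the same line had a Spearman correlation of 0.836 (T47D) and 0.876 (HCT-116), and those of libraries of different lines 0.558 to 0.649, given as a description over regions that share their libraries. The lists differ in length (1913 to 3790 peaks), so the same rank does not stand for the same score in each, and rank differences are relative to the list. The mean rank in T47D and in HCT-116 differed by a median of 10.4 and by over 50 in 25 regions, 7 higher in T47D and 18 higher in HCT-116. The largest difference towards T47D was at the promoter of MAP3K1, a kinase upstream of JNK. It had 192 and 293 in T47D (ranks 84.2 and 88.8) and 57.7 and 51.0 in HCT-116 (ranks 12.9 and 1.59). HES1, a repressor induced by Notch, had 344 and 637 in T47D and 156 and 56.6 in HCT-116. INTS1, HNRNPL and P2RY2 were the other genes that ranked higher in T47D, and INTS1 was at the same time the lowest region of both lines in HCT-116, with 54.7 and 51.1. In the other direction, GJA3, a connexin, had 54.2 and 51.9 in T47D (ranks 10.9 and 4.35) and 304 and 275 in HCT-116 (ranks 87.3 and 86.2). TMEM45A, a membrane protein, had 60.5 and 55.8 in T47D and 1040 and 481 in HCT-116. CBX5, the heterochromatin protein HP1α, had 56.2 and 65.0 in T47D and 423 and 340 in HCT-116, and held no copy of RCGTG. CALCOCO1 and FER, both at distal regions, were the last of these 5. In all 10 genes the replicates of a line lay on the same side, although these regions were picked for the difference and carry no test.

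Genes of hypoxic metabolism were mostly held in common. Over all 19794 protein-coding genes, 3.75% had a start within 2 kb of a region of both lines, 3.63% of T47D regions only and 2.71% of HCT-116 regions only. Regions of both lines were absent but each line had a region of its own for 0.0354%, and 10.1% had a region of any class. Against this background, 20 of 23 genes of glucose uptake and glycolysis lay at a region of both lines, 1 (PFKFB3) at a T47D region only and none at an HCT-116 region only, and the 2 without any region were SLC2A3 and PFKM. The 20 covered each enzymatic step from hexokinase (HK1, HK2) through aldolase (ALDOA, ALDOC) and GAPDH to pyruvate kinase (PKM), and also lactate export (SLC16A3). PGK1, the first ATP-making step, had 1752, 1656, 2001 and 1036 over the T47D and HCT-116 replicates. The glycolytic region with the lowest mean rank was that of ENO2, with 73.3 and 77.6 in T47D and 650 and 345 in HCT-116, so that it lay low in the T47D lists and high in those of HCT-116. Of 12 genes of mitophagy and the mitochondrial switch, 6 lay at a region of both lines (PDK1, PDK3, LONP1, BNIP3, BNIP3L and MXI1) and none at a region of 1 line only. BNIP3, a receptor for mitophagy, had 216, 262, 373 and 316.

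Of 16 genes of oxygen sensing and HIF feedback, 5 had a region of both lines within 2 kb (ANKRD37, HILPDA, CITED2, EGLN1 and SIAH2). Over all genes the shares within 2 kb were 3.75% for regions of both lines, 3.63% for T47D only and 2.71% for HCT-116 only. HIF1AN, the asparaginyl hydroxylase that inhibits HIF, was at an HCT-116 region with 224 and 78.9, and T47D replicate 1 had a peak of 80.4 there. CITED2, which competes with HIF for its coactivators, had 810.4 and 1229 in T47D and 405.4 and 242 in HCT-116. Of 21 Jumonji histone demethylases, 7 lay at a region of both lines and 2, KDM5B and KDM2B, at T47D regions only. KDM3A, which acts on histone H3 lysine 9, had 1817, 1748, 2823 and 1593. KDM5B, which acts on lysine 4, had 657 and 753 in T47D, no peak in either HCT-116 replicate, and sites in PC-3 and A549.

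Secreted factors, matrix enzymes and pH genes included genes at regions of each class. Of 18 secreted and angiogenic factors, 5 lay within 2 kb of a region of both lines (STC2, ADM, ANGPTL4, PDGFB and VEGFA) and EDN1, which encodes the vasoconstrictor endothelin-1, of a T47D region only. VEGFA, the main angiogenic factor, had 376, 206, 162 and 98.3 at its promoter. ADM, the vasodilator adrenomedullin, had 288 and 269 in T47D and 2314 and 1392 in HCT-116. EPO, the hormone erythropoietin, had a T47D region 2641 bp from its start, with 106 and 196 and no HCT-116 peak. Of 12 collagen hydroxylases and lysyl oxidases, 5 lay at a region of both lines (P4HA1, P4HA2, P4HB, PLOD2 and PLOD3). Of the lysyl oxidases, which crosslink collagen, LOX was at a T47D region (76.5 and 53.3). LOXL1 and LOXL2 were at HCT-116 regions (176 and 102 at LOXL1). Among 9 pH genes, SLC16A3 lay at a region of both lines, CA9 and SLC4A7 at T47D regions and SLC16A1 at an HCT-116 region. The promoter of CA9, a tumour carbonic anhydrase, shows how a class can turn on the limit of the lists, since it had 57.8 and 82.3 in T47D and 52.1 in HCT-116 replicate 2, with no peak in replicate 3. A second region 14982 bp from its start was shared, with 477, 553, 368 and 172.

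Within 2 kb, against the same shares of all genes, regulators were at regions of each class. Among 17 bHLH repressors and genes of the MYC network, BHLHE40, MXI1, ID1 and HES1 lay at regions of both lines and BHLHE41, MNT and MAX at HCT-116 regions. BHLHE40, a hypoxia-induced repressor, had 1272, 1790, 1907 and 1238. Of 15 genes of mTOR and stress response, DDIT4, an inhibitor of mTOR complex 1, lay at a region of both lines, ARRDC4 at a T47D region and ATF4 at an HCT-116 region. Clock genes were at regions of 1 line at their promoters, with CIART and PER1 in T47D and NR1D2, DBP and PER2 in HCT-116, of 16 genes. Within 25 kb, 2 clock genes had a region of both lines, 1 T47D regions only and 2 HCT-116 regions only. Of 9 AHR targets, CYP1B1 lay at a region of both lines (1054 and 732 in T47D, 166 and 133 in HCT-116), CYP1A1 at an HCT-116 region (152 and 139, with 80.6 in T47D replicate 1) and TIPARP at a T47D region (108 and 76.3). Of 16 cell cycle genes, CDK4, RB1 and CDK6 were at HCT-116 regions within 2 kb and none was at a T47D region or a region of both lines, and within 25 kb CDK2 and CCND3 had T47D regions only and CDK4 had regions of each line. Cytosolic ribosomal proteins (2, 5 and 1 of 86 at regions of both lines, T47D only and HCT-116 only), mitochondrial ribosomal proteins (2, 2 and 4 of 78), nuclear genes of oxidative phosphorylation (2, 1 and 1 of 85), proteasome subunits (2, 2 and 0 of 39) and replication-dependent histones (0, 4 and 3 of 64) had few genes in each class.

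Some genes of luminal breast identity lay near T47D regions only, mostly beyond the promoter. Within 25 kb, 6.58% of all protein-coding genes had a region of both lines, 6.23% T47D regions only, 4.81% HCT-116 regions only and 0.46% each line at different regions, 18.1% in all. Of 30 luminal genes, 10 had T47D regions only, 6 had a region of both lines and 2 (KRT8 and KRT18) had each line at different regions. None had HCT-116 regions only, and 12 had no region. XBP1, a transcription factor of secretory and luminal cells, had 3 T47D regions 12645 to 22098 bp from a start, the highest with 358 and 222. TFF3, a secreted trefoil peptide, had 173 and 136 at its promoter. FOXA1, a pioneer factor for the oestrogen receptor, had 112 and 133 at 9317 bp. GATA3, which sustains luminal fate, had 79.2 and 59.6 at 1066 bp. None of these had a peak in either HCT-116 replicate. RARA and MUC1 were among the 6 shared genes, and RARA, the retinoic acid receptor α, had 768 and 1207 in T47D and 250.5 and 79.8 in HCT-116. Within 2 kb the luminal counts were 3 (TFF3, GATA3 and TFAP2A) at T47D regions only and 3 (RARA, MUC1 and GREB1) at regions of both lines. Of 30 genes of intestinal identity and Wnt signalling, 2 (VIL1 and KLF5) had a region of both lines within 25 kb, 1 (ASCL2) T47D regions only and 1 (TCF7) an HCT-116 region only. TCF7, a Wnt effector, had 56.3 and 119 in HCT-116 at 1117 bp. The difference between the luminal and intestinal lists was not tested. The marker lists repeat genes of the lists above, among them GATA3, FOXA1, XBP1, KRT8 and KRT18, so their counts are not separate evidence. By the marker lists, 5 of 15 luminal breast markers had T47D regions only within 25 kb. A further 3 had a region of both lines, and 2 had each line at different regions. Of 14 colorectal markers, 1 had T47D regions only and 1 a region of both lines. Neither list had a gene with HCT-116 regions only. Of 5 stromal markers, 1 (VIM) had an HCT-116 region only, as had 1 of 4 blood markers. Peak lists hold no expression, so the identity of the lines could not be checked further.

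**Figure D4:**
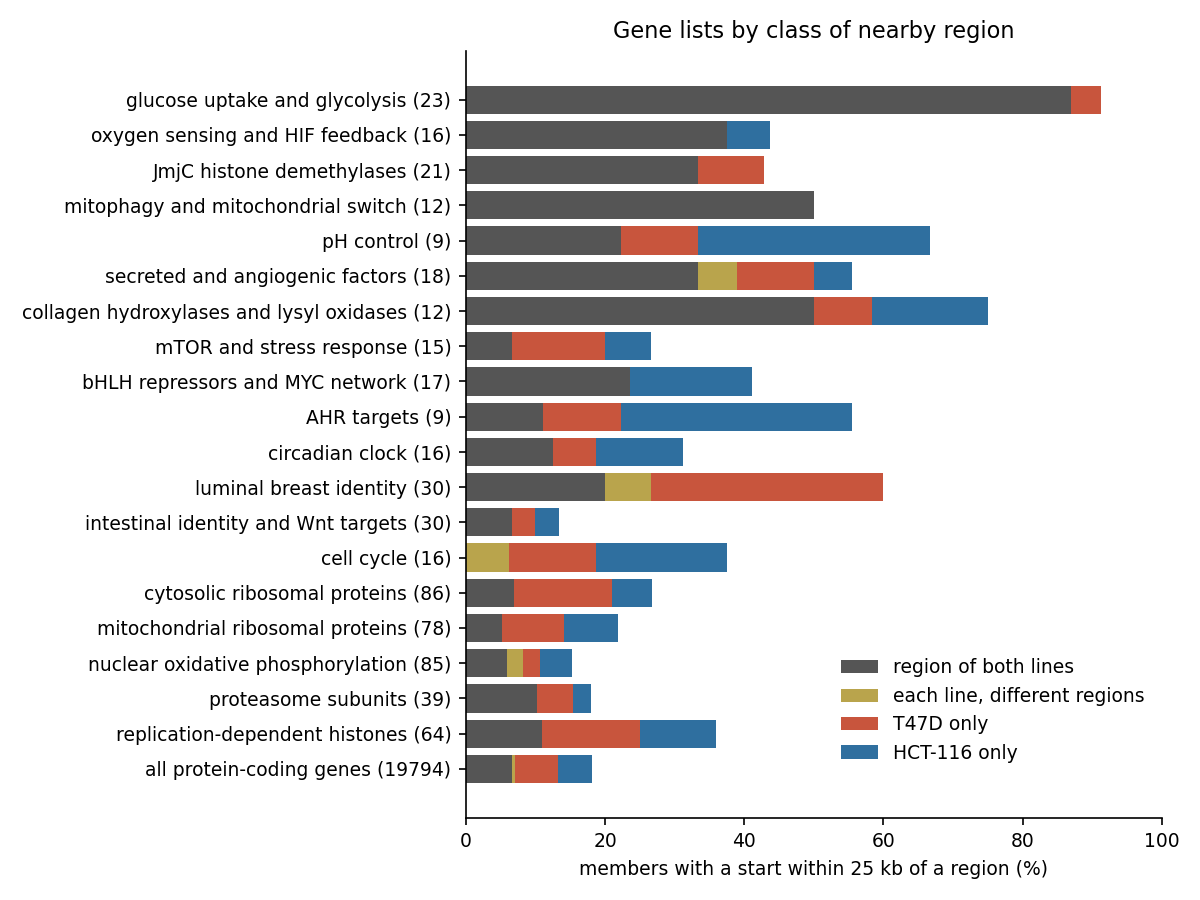
Bars show the share of the genes of each list (%) with a transcription start within 25 kb of a region, divided by class, with the number of genes in brackets and all protein-coding genes at the bottom. Regions of both lines make up most of the bar for glucose uptake and glycolysis (20 of 23 genes), and T47D regions make up 10 of 30 genes in the bar for luminal breast identity.

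The sequence at the middle of the regions differed between the classes, most of all in distal regions. In the central 200 bp, RCGTG was present in 72.0% of the regions of both lines (interval 68.7 to 75.1%), 58.9% of T47D regions (56.1 to 61.6%) and 70.6% of HCT-116 regions (67.6 to 73.4%). The share was 24.9%, 21.8% and 23.03% in windows of the same length 5 kb to either side. It was 40.9% in windows of that length centred on 78564 transcription starts. At promoters the classes lay at 70.9%, 67.0% and 70.4%. In distal regions the shares were 76.3%, 51.0% and 70.7%, so that the T47D class was the lowest in both settings, by more in distal regions. Whole libraries showed the same order, with 60.03% and 62.3% of peaks in T47D and 69.0% and 72.8% in HCT-116 (difference -9.75 percentage points, exact permutation test, two-sided, p = 0.333, the smallest possible, adjusted p = 0.5). A palindromic E-box, CACGTG, contains ACGTG and was in the window at 5.14% of starts. It was in the middle of 12.8% of distal regions of both lines, 5.38% of those of T47D and 7.32% of those of HCT-116.

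Motifs of other factors also differed between the distal regions of the lines. AP-1 and forkhead motifs were singled out after the shares of all 15 motifs had been seen, so their values are a description. The AP-1 motif (TGANTCA on either strand), bound by FOS and JUN proteins, was in the central 200 bp of 34.7% of distal HCT-116 regions (interval 30.5 to 39.2%), 7.07% of distal T47D regions (5.22 to 9.31%) and 11.5% of distal regions of both lines (6.98 to 17.6%). At 5 kb the share was 6.69%, 6.91% and 5.13%, and 3.73% of transcription starts had it. In distal peaks of single libraries, the AP-1 share was 7.26% and 7.65% in T47D replicates 1 and 2 and 27.6% and 26.2% in HCT-116 replicates 2 and 3. The forkhead motif (TGTTTAC or TATTTAC), bound by FOXA1 among others, went the other way. It was in 10.3% of distal T47D regions (8.07 to 12.9%), 4.18% of those of HCT-116 (2.57 to 6.39%) and 2.56% of those of both lines, against 5.38%, 5.02% and 3.21% at 5 kb and 2.73% of starts. Single T47D libraries gave 8.26% and 8.74%, and HCT-116 libraries 3.70% and 3.97%. The grainyhead motif (AACCNGTT) was in 3.84%, 0.837% and 0.641% of distal regions of T47D, HCT-116 and both lines, and in 0.885% of starts. The palindromic oestrogen response element was in 1.08% of distal T47D regions, 0.209% of distal HCT-116 regions and none of the 156 of both lines, which allows up to 2.34%. For the GATA motif (AGATAA) the shares at the middle of T47D, HCT-116 and shared distal regions, 12.1%, 8.58% and 7.69%, stood beside 12.1%, 10.7% and 9.94% at 5 kb.

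For 15 motifs in promoter and distal peaks, 30 exact permutation tests of the libraries were made, each with a smallest p of 0.333, and the smallest adjusted p was 0.4, so none could pass. AP-1 had the widest difference, -19.45 percentage points (T47D minus HCT-116, distal peaks). At promoters the AP-1 share was 2.56%, 3.02% and 4.02% in regions of both lines, T47D and HCT-116, no higher than at 5 kb from them. Among distal HCT-116 regions, RCGTG was as frequent with an AP-1 motif (117 of 166, 70.5%) as without (221 of 312, 70.8%). Sites in PC-3 or A549 were 45.8% of those with AP-1 (interval 38.0 to 53.7%) and 39.1% of those without (33.7 to 44.8%), and these intervals overlap. In 4 groups by rank the AP-1 share in these regions ran between 30.0% and 42.0% with no steady order, and the forkhead share in distal T47D regions was 12.3% in the highest group (20 of 163, interval 7.66 to 18.3%) and 6.17% in the lowest (10 of 162). Motifs for AP-2 (GCCNNNGGC), Sp factors (GGGCGG), ETS factors (CCGGAAG), CDX (TTTATNG), TCF (CTTTGAT) and TEAD (ACATTCC) were searched in the same way. In distal regions of both lines, T47D and HCT-116, the Sp share was 32.7%, 12.6% and 17.4% (5.53 to 7.05% at 5 kb, and 43.4% of starts) and the AP-2 share 17.3%, 12.4% and 10.9% (19.6% of starts). CDX, a motif of intestinal factors, was in 7.32% of distal HCT-116 and 7.99% of distal T47D regions, below its share at 5 kb in both. The match of a motif is a description of the sequence and not a measured binding of its factor.

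**Figure D5:**
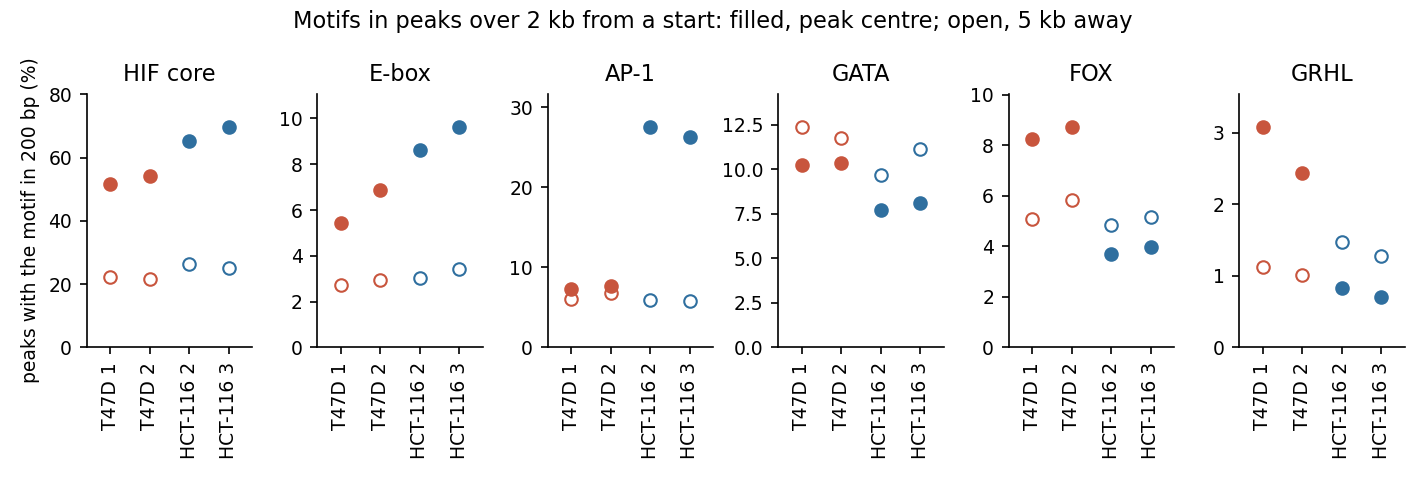
Filled points show the share of distal peaks (%) with a motif in the central 200 bp in each library, and open points the share in windows of the same length 5 kb to either side, for the HIF core (RCGTG), E-box, AP-1, GATA, forkhead (FOX) and grainyhead (GRHL) motifs, each on its own axis from 0. AP-1 was at 27.6% and 26.2% in HCT-116 and at 7.26% and 7.65% in T47D, where it lay close to the open points, and forkhead lay above the open points in T47D and below them in HCT-116.

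The PC-3 and A549 lists, which did not enter the classing, gave another readout of each region. A site in PC-3 or A549 was present at 54.5% of the regions of both lines (interval 51.0 to 58.1%), 27.7% of HCT-116 regions (24.9 to 30.6%) and 8.59% of T47D regions (7.11 to 10.3%). Without HCT-116 replicate 3 the HCT-116 share was 13.9%, and in the higher-scoring 50% of each list it was 45.3%. PC-3 alone gave 46.7%, 18.8% and 4.996%, and A549 alone gave 37.5%, 17.8% and 5.39%, in the same order. The HCT-116 class exceeded the T47D class most in distal regions, with 41.4% against 10.9%, and at promoters the shares were 14.5% and 6.19%. In the 4 pairings of single libraries the class of both lines was highest and T47D lowest each time. These are descriptions over regions, and no test over libraries was made of them.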

How the data were processed

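Peak lists of 4 HIF-1β ChIP-seq libraries (T47D replicates 1 and 2, HCT-116 replicates 2 and 3) were used, with those of PC-3 and A549 as a readout. Per the submitters' processing notes, the authors used Trim Galore 0.3.3, BWA 0.7.5a-r405, SAMtools 0.1.19, Picard 1.106, bedtools 2.17.0 and MACS (version not given in the sources used here) on GRCh37 (hg19), with peaks called in each library. The deposited score of each peak has no header and a lower limit of about 50, and its origin in MACS was inferred from its values. Its scale is not stated, so ranks within a library (ties averaged) were used. An overlap step with a second caller, named in the methods, could not be recognised in the lists.

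Regions were annotated with protein-coding transcript starts of GENCODE release 44 lifted to GRCh37. Promoter means within 2 kb. Motifs were searched on both strands in the central 200 bp. Python 3.11.15, NumPy 2.4.6, SciPy 1.17.1, pandas 2.3.3, pysam 0.24.0 and Matplotlib 3.10.9 were used. Libraries were compared by exact permutation tests with Benjamini-Hochberg adjustment, and classes of regions by counts without a test. Overlap counting was tested on simulated data. Members, gene lists and motifs were chosen with earlier results of these data known. Genes were named by rule: the 10 highest regions of each class (for 1-line classes, without a peak in the other line), the listed genes within 25 kb of a region (all where a class held few, otherwise up to 4), the extremes of the shared regions, and the 5 largest rank differences each way. Sequences are from the 3 highest regions of each class, leaving out chromosome 8. The alternatives were another overlap, score cut, site definition, site number, promoter width, annotation and motif window, and leaving out each library.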

Additional observations from a re-analysis of the deposited data

Results flagged for a closer look

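In distal peaks the forkhead share in the central 200 bp, minus that at 5 kb, was 3.172 and 2.899 percentage points in T47D replicates 1 and 2 and -1.133 and -1.206 in HCT-116 replicates 2 and 3. For the grainyhead motif the values were 1.962 and 1.429 in T47D and -0.642 and -0.5674 in HCT-116. For the TCF motif they were -1.085 and -0.6723 in T47D and 1.624 and 0.2128 in HCT-116. In promoter peaks the oestrogen response element gave 0.05379 and 0.05824 in T47D and -0.02029 and -0.04146 in HCT-116, where each T47D share rests on 1 peak. These were picked from 15 motifs in promoter and distal peaks because both libraries of 1 line lay above the level at 5 kb and both of the other below it. That pattern is the rule of selection and not a result. The difference between the lines in these values was not tested.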

How the results depend on the processing

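Of the values recomputed under the alternatives, 172 stayed close to the reported value and 72 did not, and the cause was not tested. A reversal could be recorded only for shares of pairs, differences between libraries and the Jaccard difference, and 0 were. For all other values no reversal could be recorded. For shares of regions, close meant inside the counting interval, and for numbers of regions or genes, within 1.5 times. For median distances it meant inside a binomial interval of the median, which is wide. With 1500 sites of each line, 4745 bp in T47D counted as close to 2590 bp. In the higher-scoring 50%, 3429.5 bp in HCT-116 counted as close to 1243 bp. For shares of pairs it meant inside the mean ± SD of the libraries of the line, and for differences between libraries, of the same sign. Values below are for regions of both lines, T47D and HCT-116 in that order unless named. With a peak of either replicate as a site there were 1588, 2297 and 2342 regions, RCGTG was in 51.4% (T47D) and 65.3% (HCT-116), T47D had 44.3% at promoters and a median distance of 6056.5 bp, 31.9%, 5.19% and 14.4% were PC-3 or A549 sites, and shared regions ranked higher in 67.0% of T47D pairs (70.8% as reported). The higher-scoring 50% of each list gave 436, 659 and 490 regions, promoter shares of 45.4% and 46.5% for T47D and HCT-116, and 74.5%, 15.7% and 45.3% in PC-3 or A549. With 1500 sites of each line, T47D had 850 regions and 45.6% at promoters, shared and HCT-116 regions had 60.6% and 32.4% in PC-3 or A549, and the T47D pairs gave 68.2%. Without 1-line regions that met a peak of the other line, promoter shares were 37.8% and 42.3%, distances 12324 and 6623.5 bp, and RCGTG in T47D 55.5%. A promoter of 500 bp gave 46.4% and 47.6%. With 5′ ends of genes, chosen after seeing the data, promoter shares were 69.5%, 40.6% and 41.1%, distances 9423 and 8878 bp in T47D and HCT-116, and AP-1 in distal HCT-116 regions 30.3%. In whole regions RCGTG was in 99.5%, 94.4% and 98.8%, and, added after seeing the data, AP-1 in 38.7% and 69.2% and forkhead in 40.9% and 24.7% of distal T47D and HCT-116 regions. Within 2 kb in place of 25 kb, 3 luminal genes had a region of both lines and 3 had T47D regions only.

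Leaving out each library in turn gave 792 to 1086, 979 to 2176 and 869 to 2697 regions, the last without HCT-116 replicate 3, and 2018 and 2176 T47D regions without T47D replicates 1 and 2. Promoter shares were 79.7 to 81.1%, 38.4 to 52.8% and 47.03 to 58.7%, distances 0 bp, 591 to 11075 bp and 0 to 3843 bp, RCGTG 71.0 to 73.1%, 55.6 to 58.9% and 66.5 to 70.9%, and PC-3 or A549 42.1 to 53.98%, 5.89 to 8.58% and 13.9 to 29.1%. Shared regions ranked higher in 63.5 to 74.6% (T47D) and 66.2 to 76.5% (HCT-116) of pairs. In distal T47D and HCT-116 regions, AP-1 was in 6.53 to 7.08% and 31.0 to 35.7% and forkhead in 9.45 to 11.1% and 3.59 to 4.44%. The order of the promoter shares held in 10 of 12 alternatives, and HCT-116 fell below T47D without T47D replicate 1 or 2. The orders held in 11 of 11 for RCGTG, 10 of 10 for PC-3 or A549, and 13 of 13 for AP-1 and for forkhead.

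No paired analysis was possible because the lines share only replicate number 2. The lists hold no reads, and sites under their lower limit of about 50 cannot be seen.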

Other observations

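Some genes were the nearest start to several 1-line regions. These genes were chosen after their counts were seen. EDN1, which encodes endothelin-1, was nearest to 9 T47D regions and to none of another class, between 1604 and 201760 bp from its start, with mean ranks from 3.63 to 98.0. On chromosome 8, MYC and TRPS1 were nearest to 6 T47D regions each, with none of another class. BOD1 was nearest to 5 T47D regions, and GATA3, the epithelial factor EHF and KCTD15 to 4 each, again with none of another class. SLC45A1 was nearest to 5 HCT-116 regions and to none of another class, 85258 to 135286 bp from its start. FOSL2, a partner in AP-1, was nearest to 3 HCT-116 regions and 1 shared region, and AHRR, the repressor of AHR, to 3 HCT-116 regions. Chromosome X held 29 T47D regions (2.26% of the class) and 9 HCT-116 regions (0.923%). T47D regions were 76.3% of its 1-line regions (interval 59.8 to 88.6%), the highest share of any chromosome with regions. On the others this share ran from 47.7% to 67.5%. Chromosome X held 2.06% and 2.23% of the peaks of the T47D replicates against 1.504% and 1.41% of those of HCT-116. The copy number of the lines was not used here.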
